A study of Mus musculus with 6 samples.

Results

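Shores of promoter CpG islands were examined in the cerebral cortex of Uhrf1 conditional knockout (cKO) and control mouse embryos. A CpG island was any stretch of the GRCm38 sequence made of merged windows of 200 bp with a GC content of at least 50% and an observed to expected CpG ratio of at least 0.6. It was a promoter island when it overlapped the annotated 5' end of a protein-coding gene. Its shore was the sequence outside every island but within 2000 bp of its edge. Of 636736 autosomal CpG cytosines read at least 6 times in all 6 libraries, 17473 (2.74%) were shore cytosines. They belonged to 16671 CpGs, of which 802 were read on both strands. The shores lay beside 5036 of 11070 promoter islands, which held the 5' ends of 12167 genes (58.5% of the autosomal protein-coding genes). Another 19520 cytosines lay as close to a promoter island but inside another island, and were therefore not shore cytosines.

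DNA methylation was read by oxidative reduced representation bisulfite sequencing of whole cortex at embryonic day 16 in C57BL/6 embryos. All embryos carried Emx1Cre, which deletes a floxed exon of Uhrf1 in the dorsal telencephalon early in neurogenesis. The 3 control libraries came from embryos that keep an intact allele (Uhrf1 +/-), so control cells also carried a deleted allele, and the 3 cKO libraries from embryos with both alleles deleted (Uhrf1 -/-). Cells of other origin within the dissected cortex, such as interneurons, vessels and microglia, are not recombined by this Cre. The litter of each embryo is not given, so the p-values reflect only how far these libraries differ among themselves. The assay reads no transcripts, so neither the deletion nor the tissue could be checked against expressed markers.

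CpG islands at gene starts are kept free of methylation in most tissues, while most CpGs elsewhere in the genome are methylated. The shore is the transition between these states, and tissue differences in methylation often fall there. Uhrf1 binds hemimethylated CpGs behind the replication fork and recruits Dnmt1, which copies methylation to the new strand, so that in dividing cells without Uhrf1 methylation is diluted with each division.

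The library labelled control replicate 1 stood apart. Its mean methylation over the 142324 autosomal cytosines outside islands and their shores was 26.9%. Control replicates 2 and 3 had 71.8% and 71.6%, while the 3 cKO libraries had 34.1%, 33.2% and 26.4%. It kept its label, and each test is given with all 6 libraries and without it. The tests without it leave out a control by the outcome that is measured. In cKO replicates 2 and 3, 3.67% and 3.35% of mitochondrial CpG reads were C, against 0.922% to 1.14% in the other 4 libraries. The part of this difference in the values of nearly unmethylated sites was not tested. Each file held 18238737 to 31019082 reads over listed cytosines, and 363453 to 602343 reads fell on shore cytosines, at a median coverage of 19 to 28 reads per shore cytosine.

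The sequence of the shores shows the transition that the values describe. Within 250 bp of an island edge they held 17.3 CpGs per 1000 bp, and 9.40 at 1751 to 2000 bp. CCGG, the palindrome cut by MspI (so counted once for both strands), fell from 1.56 to 0.743 sites per 1000 bp over the same range, and the libraries covered 3.59% of the CpG cytosines nearest the edge and 1.29% of those farthest from it. The following 6 stretches of the GRCm38 plus strand include 3 that were nearly unmethylated in all libraries (Flt1, Nrxn2 and Odf2). They also include 2 that were highly methylated in control replicates 2 and 3 (Aldoa and Cspg4), and the stretch of the targeted gene, Uhrf1, had a low level. For Odf2 this holds for the printed stretch only, as the outer part of its flank had 72.2% and 85.1% in control replicates 2 and 3. Capitals mark the CpGs covered in all 6 libraries. Upstream of Flt1, a vascular endothelial growth factor receptor, chr5:147726866-147727028 lies in intergenic sequence 90 to 242 bp from its island. Upstream of Nrxn2, a presynaptic adhesion protein, chr19:6418273-6418443 is intronic and 34 to 194 bp from the edge. Downstream of the start of Odf2, a component of the centriole and the sperm tail, chr2:29890347-29890483 is intronic and 42 to 168 bp from the edge. Upstream of Uhrf1 itself, chr17:56302766-56302914 is intergenic and 277 to 415 bp from the edge. Farther out lie the intronic stretches chr7:126810476-126810679, 1022 to 1215 bp upstream of the island of Aldoa, which encodes a glycolytic aldolase, and chr9:56866251-56866435, 954 to 1128 bp downstream of the island of Cspg4, the NG2 proteoglycan of oligodendrocyte progenitors and pericytes.
Flt1, upstream: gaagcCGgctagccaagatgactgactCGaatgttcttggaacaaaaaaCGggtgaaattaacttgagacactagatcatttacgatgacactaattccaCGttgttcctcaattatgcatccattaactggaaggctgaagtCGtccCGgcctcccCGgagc
Nrxn2, upstream: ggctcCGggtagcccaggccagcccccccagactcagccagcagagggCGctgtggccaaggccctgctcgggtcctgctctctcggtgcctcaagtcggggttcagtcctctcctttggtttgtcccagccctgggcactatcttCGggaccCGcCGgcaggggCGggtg
Odf2, downstream: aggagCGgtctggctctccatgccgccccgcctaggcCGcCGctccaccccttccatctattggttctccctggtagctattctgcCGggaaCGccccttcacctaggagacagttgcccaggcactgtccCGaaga
Uhrf1, upstream: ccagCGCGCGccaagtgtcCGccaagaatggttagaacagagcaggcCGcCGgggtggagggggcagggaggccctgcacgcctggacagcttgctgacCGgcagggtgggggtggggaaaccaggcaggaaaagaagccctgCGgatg
Aldoa, upstream: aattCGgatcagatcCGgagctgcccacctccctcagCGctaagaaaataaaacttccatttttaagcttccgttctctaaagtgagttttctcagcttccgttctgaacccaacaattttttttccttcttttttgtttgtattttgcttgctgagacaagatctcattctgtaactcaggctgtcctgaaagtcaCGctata
Cspg4, downstream: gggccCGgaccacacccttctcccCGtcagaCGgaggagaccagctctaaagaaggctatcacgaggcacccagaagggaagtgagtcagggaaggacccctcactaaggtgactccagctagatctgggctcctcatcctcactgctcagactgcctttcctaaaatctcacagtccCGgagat

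Read over these stretches, the Flt1 shore was methylated at 0.667%, 3.07% and 0.515% in control replicates 1, 2 and 3 and at 1.57%, 0% and 1.49% in the cKO replicates. The Nrxn2 stretch lay between 0% and 2.96% and the Odf2 stretch between 0% and 1.61% in all 6 libraries. The Uhrf1 stretch had 6.98%, 12.2% and 7.69% in the control libraries and 7.88%, 10.3% and 1.39% in the cKO libraries, and the groups overlapped. The Aldoa stretch had 20.2%, 87.0% and 92.6% in the control libraries and 34.3%, 22.9% and 21.5% in the cKO libraries. The Cspg4 stretch had 36.4%, 77.8% and 83.0% against 31.2%, 37.7% and 22.6%. In the last 2 stretches control replicates 2 and 3 were far above all cKO libraries, and control replicate 1 was at their level.

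Shores were partly methylated in control cortex and less methylated in cKO cortex than in control replicates 2 and 3. Their mean level was 12.7%, 35.2% and 34.7% in the control libraries (replicates 1, 2 and 3, the order kept below) and 16.5%, 16.7% and 13.6% in the cKO libraries. Every cKO library lay below control replicates 2 and 3, and above control replicate 1. With all 6 libraries the control mean of 27.5% ± 12.8 (SD, n = 3) and the cKO mean of 15.6% ± 1.73 (SD, n = 3) differed by -11.9 points (two-sided exact permutation test, p = 0.4). Without control replicate 1 the control mean was 34.9% ± 0.338 (SD, n = 2) and the difference -19.3 points (exact permutation test, p = 0.1), which left the cKO shores with 44.7% of the level of control replicates 2 and 3. Neither 3 against 3 nor 2 against 3 libraries can give a p below 0.1. In bulk cortex, a lower level in every cell and a loss in more of the cells cannot be told apart.

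The islands that the shores border were nearly unmethylated in all libraries, with 1.03%, 1.46% and 1.39% in the control and 1.13%, 2.01% and 1.91% in the cKO replicates. Shores of islands without a gene start were far more methylated, at 24.6%, 64.9% and 64.4% in the control and 31.3%, 30.4% and 24.4% in the cKO replicates, and had 44.4% of the level of control replicates 2 and 3 left in the cKO. In the rest of the sequence outside islands 43.5% was left. Promoter-island shores therefore sat well below other non-island sequence in points, while the proportion left in cKO was close to that of the other classes outside islands. Inside islands without a gene start 51.1% was left. The classes were not matched on distance from an island edge. At 1751 to 2000 bp promoter-island shores had 62.9% and 62.8% in control replicates 2 and 3. In points, the difference between the groups was smaller at promoter-island shores than in the rest outside islands by 13.6 points with all 6 libraries (exact permutation test of the difference of differences, p = 0.3) and by 21.2 without control replicate 1 (exact permutation test, p = 0.1). It was smaller than at shores of other islands by 10.7 points (exact permutation test, p = 0.3) and by 16.6 without control replicate 1 (exact permutation test, p = 0.1). With the stricter definition of islands (at least 500 bp, GC of 55% and a ratio of 0.65) this contrast with shores of other islands was 2.13 points, and 3.26 without control replicate 1. The main definition gave 171514 autosomal islands and the stricter one 20461. The shore minus promoter island contrast differed between the groups by -12.3 points (exact permutation test, p = 0.4) and by -19.6 without control replicate 1 (exact permutation test, p = 0.1).

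**Figure D1:**
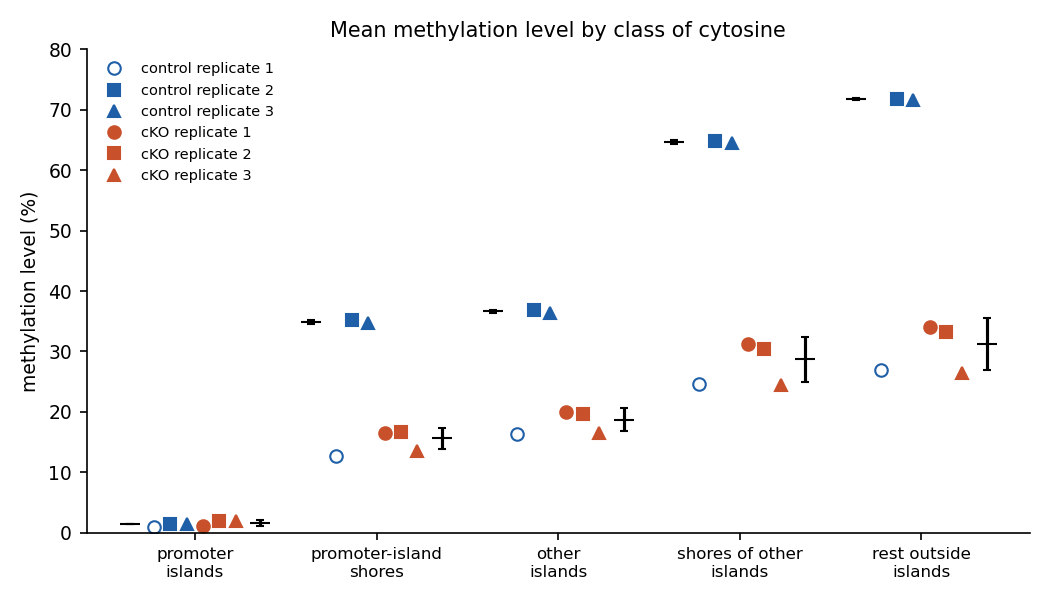
Mean methylation level in percent, with each cytosine weighted equally, for 5 classes of autosomal cytosine (x axis). Points are libraries, and the black bars give the mean ± SD of control replicates 2 and 3 (left of each class) and of the 3 cKO replicates (right). At promoter-island shores control replicates 2 and 3 stood at 35.2% and 34.7%, the cKO replicates between 13.6% and 16.7% and control replicate 1 (open circle) at 12.7%.

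Methylation rose steeply with distance from the island in every library. At 1 to 250 bp the mean was 4.55%, 10.6% and 10.2% in the control replicates and 5.57%, 6.88% and 6.05% in the cKO replicates. At 251 to 500 bp it was 10.8%, 29.0% and 28.1% in the control and 14.0%, 14.1% and 11.7% in the cKO replicates. At 751 to 1000 bp it reached 18.5%, 51.7% and 51.3% in the control and 24.1%, 23.4% and 18.8% in the cKO replicates. Beyond 1000 bp the curve flattened, and at 1751 to 2000 bp the values were 22.2%, 62.9% and 62.8% in the control and 28.9%, 27.5% and 22.7% in the cKO replicates. The curve was thus flatter in the cKO than in control replicates 2 and 3. Just beyond the 2000 bp limit, at 2001 to 2250 bp, control replicates 2 and 3 had 64.8% ± 0.0925 (SD, n = 2) and the cKO libraries 26.9% ± 3.65 (SD, n = 3), which continues the flat outer part.

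**Figure D2:**
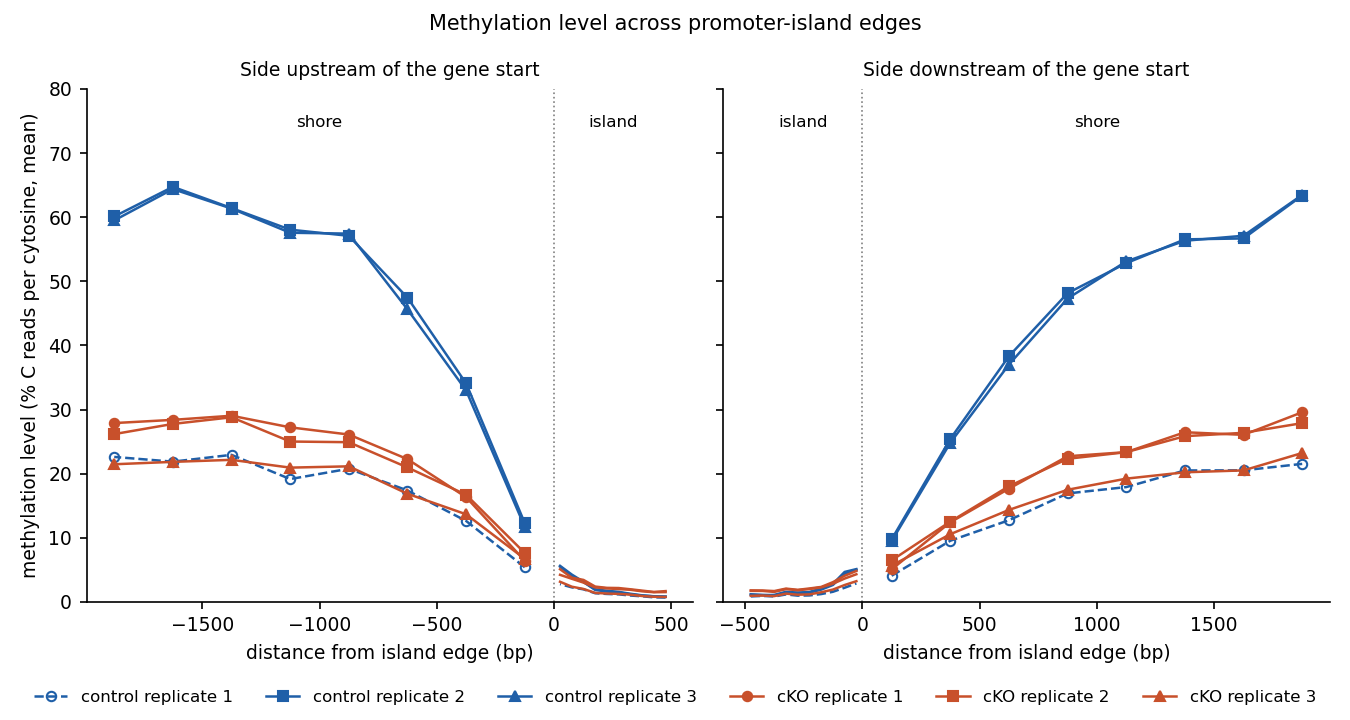
Mean methylation level in percent (y axis) against distance from the promoter-island edge in bp (x axis, shore in bins of 250 bp, island interior in bins of 50 bp) on the upstream (left) and downstream (right) side, 1 line per library. Control replicates 2 and 3 rise to at most 64.7% upstream and 63.5% downstream, while the 3 cKO replicates reach at most 29.0% and 29.6% and control replicate 1 (dashed) at most 22.9% and 21.5%.

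In points, the difference between cKO and control replicates 2 and 3 was larger in the outer than in the inner shore. The outer shore (beyond 1000 bp) exceeded the inner shore (1 to 500 bp) by 14.5, 43.7 and 44.1 points in control replicates 1, 2 and 3 and by 19.3, 17.6 and 13.6 points in the cKO replicates. This gradient differed between the groups by -17.3 points with all 6 libraries (exact permutation test, p = 0.3) and by -27.1 points without control replicate 1 (exact permutation test, p = 0.1). As a share of control replicates 2 and 3, the cKO mean kept 52.5% in the inner and 42.0% in the outer shore. The share was 59.2% at 1 to 250 bp, 46.5% at 251 to 500 bp and between 41.6% and 43.4% in each bin beyond 500 bp. By library, cKO replicate 1 had 53.4% at 1 to 250 bp and 46.1% at 1751 to 2000 bp, and control replicate 1 had 43.6% and 35.3%. The part of the higher mitochondrial C reads of cKO replicates 2 and 3 in the share next to the island was not tested.

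**Figure D3:**
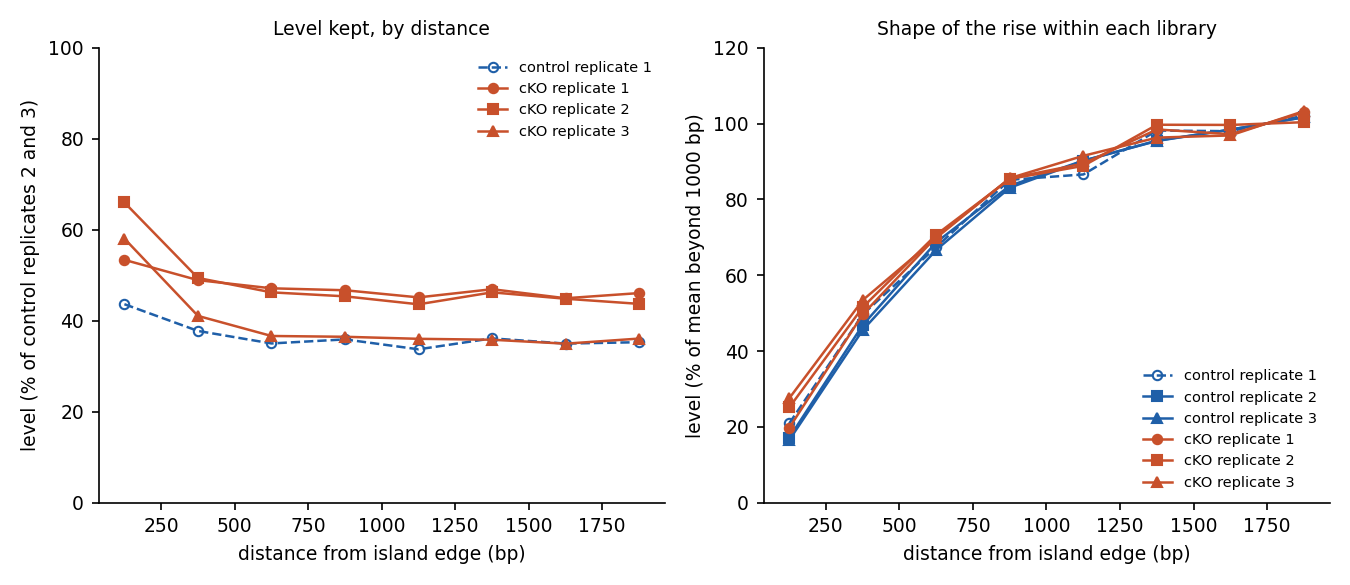
Left, the level in each cKO library and in control replicate 1 as a percentage of the mean of control replicates 2 and 3, by distance from the island edge in bp. Right, the level in each library as a percentage of its own mean at 1501 to 2000 bp (the axis label reads beyond 1000 bp). In the cKO mean the share kept is 59.2% in the first bin and 42.0% in the last, and the curves on the right lie close together, with the first bin at 16.9% in control replicates 2 and 3 and 24.2% in the cKO.

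The edge itself, as computed from sequence, was no step in methylation. In the last 50 bp inside the islands the level was 2.73%, 5.13% and 4.95% in the control and 3.07%, 4.81% and 4.19% in the cKO replicates. In the first 50 bp of the shore it was 2.95%, 5.85% and 5.50% in the control and 3.13%, 4.81% and 4.45% in the cKO replicates. The first 50 bp thus resembled the island rim, and by 451 to 500 bp outside the values were 12.6%, 33.8% and 32.1% in the control and 16.1%, 14.9% and 12.5% in the cKO replicates.

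Shores upstream of the gene start were more methylated than downstream shores in all 6 libraries. Upstream shores (6400 cytosines) had 37.4% in control replicates 2 and 3 and 16.6% in the cKO, and downstream shores (9803 cytosines), which run into the gene, had 32.6% and 14.7%. At 251 to 500 bp the level in control replicates 2 and 3 was 33.5% upstream and 25.1% downstream, at 501 to 750 bp 46.5% and 37.7%, and at 751 to 1000 bp 57.3% and 47.7%. In the bin of 1751 to 2000 bp the order was the opposite, with 59.8% upstream and 63.4% downstream. Downstream minus upstream was -2.16, -4.90 and -4.61 points in the control and -2.31, -1.82 and -1.63 in the cKO replicates. The groups differed in this contrast by 1.97 points with all 6 libraries (exact permutation test, p = 0.2) and by 2.83 without control replicate 1 (exact permutation test, p = 0.1). It was 0.872 points with the stricter islands and 3.49 with each read weighted equally, and 1.26 and 5.08 without control replicate 1. Beside the 952 islands with gene starts on both strands, where neither side is upstream of all starts, the 1270 shore cytosines had 40.2% in control replicates 2 and 3 and 17.1% in the cKO. In each of the 24 combinations of side and bin every cKO library lay below control replicates 2 and 3 (exact permutation test adjusted over the 24, p = 0.4 in each with all 6 libraries and p = 0.1 without control replicate 1).

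What surrounded a shore CpG also went with its level. Beyond 1000 bp, cytosines with 1 to 3 CpGs, their own included, within 100 bp on either side had 64.9% in control replicates 2 and 3 and 27.0% in the cKO, those with 4 to 6 CpGs 58.3% and 24.8%, and those with 7 or more CpGs 50.7% and 21.0%. The same order held at 1 to 500 bp, with 25.5%, 15.8% and 9.15% in control replicates 2 and 3. Exonic shore cytosines were more methylated than intronic ones at the same distance. Beyond 1000 bp exons had 68.0%, introns 54.1% and intergenic sequence 57.6% in control replicates 2 and 3, and 28.3%, 22.7% and 24.7% in the cKO. The 1110 shore cytosines within annotated repeats had 48.9% in control replicates 2 and 3 and 22.3% in the cKO. Density, position in the gene and distance overlap, and their separate parts were not tested.

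Single shore cytosines were spread over low, middle and high levels in control replicates 2 and 3, and the high class was nearly empty in the cKO. In control replicates 1, 2 and 3, 0.515%, 20.3% and 20.4% of shore cytosines were methylated in at least 80% of reads, against 0.670%, 0.504% and 0.395% in the cKO replicates. The share below 20% was 73.2%, 51.0% and 51.7% in the control and 63.3%, 64.1% and 71.3% in the cKO replicates. Between these bounds lay 26.3%, 28.8% and 27.8% in the control and 36.0%, 35.4% and 28.3% in the cKO replicates. Cytosines of like starting level were also compared, by sorting them on control replicate 2 and reading the other libraries. The 1764 shore cytosines at 90 to 100% in control replicate 2 had 86.7% in control replicate 3, 33.0% in control replicate 1 and 37.3% ± 4.79 (SD, n = 3) in the cKO. The cKO level was 43.0% of control replicate 3 at these shore cytosines and 45.1% in the rest outside islands. The 7708 shore cytosines below 10% in control replicate 2 had 2.96% in control replicate 3, 1.82% in control replicate 1 and 2.11%, 4.00% and 3.62% in cKO replicates 1, 2 and 3, the last 2 being the libraries with more mitochondrial C reads.

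A flank, the shore on 1 side of 1 island, was used as the unit for single genes, and 2626 flanks of promoter islands had at least 3 covered cytosines. The median flank had 23.4% in control replicates 2 and 3 and 10.8% in the cKO. In control replicates 2 and 3, 1039 flanks (39.6%) were below 10% and 941 (35.8%) at or above 50%. In the cKO mean, 1284 were below 10% and 36 (1.37%) at or above 50%. A flank was called lower or higher in cKO when its group means were 25 points or more apart and its q (Benjamini-Hochberg) was under 0.01 in a moderated quasi-binomial test, fitted over 19763 flanks of all autosomal islands. With all 6 libraries 0 promoter-island flanks were lower and 0 were higher, where 0% of all island flanks were called in either direction. An unadjusted p under 0.05, in either direction, was found in 308 of the 2626 promoter-island flanks and in 4257 of all 19763 island flanks. On the same promoter-island flanks limma also called 0, with 182 at an unadjusted p under 0.05. Without control replicate 1, 983 of the 2626 flanks (37.4%) were lower and 0 were higher, against 67.6% lower and 0% higher among all island flanks tested. With the dispersion of each flank left unmoderated 0 of the 2626 flanks were lower in this test, and limma called 984. A flank can fall by 25 points only from a level of at least 25%. Of the 1285 promoter-island flanks at such a level in control replicates 2 and 3, 983 (76.5%) were lower, and of the 14455 other island flanks at such a level 12377 (85.6%) were, without matching on the starting level.

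The 983 flanks had a median of 75.9% in control replicates 2 and 3 and 28.1% in the cKO, and the lowest of them had 36.1% in control replicates 2 and 3. Control replicate 1 had a median of 23.5% over them, and was at or below the highest cKO library in 843. Of 949 upstream flanks 391 were lower without control replicate 1, of 1488 downstream flanks 513, and of 189 beside islands with starts on both strands 79. Of the 1587 flanks at or above 10% in control replicates 2 and 3, the cKO mean was below them in 1578 and control replicate 1 in 1570. Of the 1039 flanks under 10%, the cKO mean was above them in 672. By library, cKO replicates 2 and 3 were above in 666 and 635 of these flanks, with medians of 3.06% and 2.74%, and cKO replicate 1 in 371, with a median of 1.21%, against medians of 1.59% and 1.30% in control replicates 2 and 3.

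**Figure D4:**
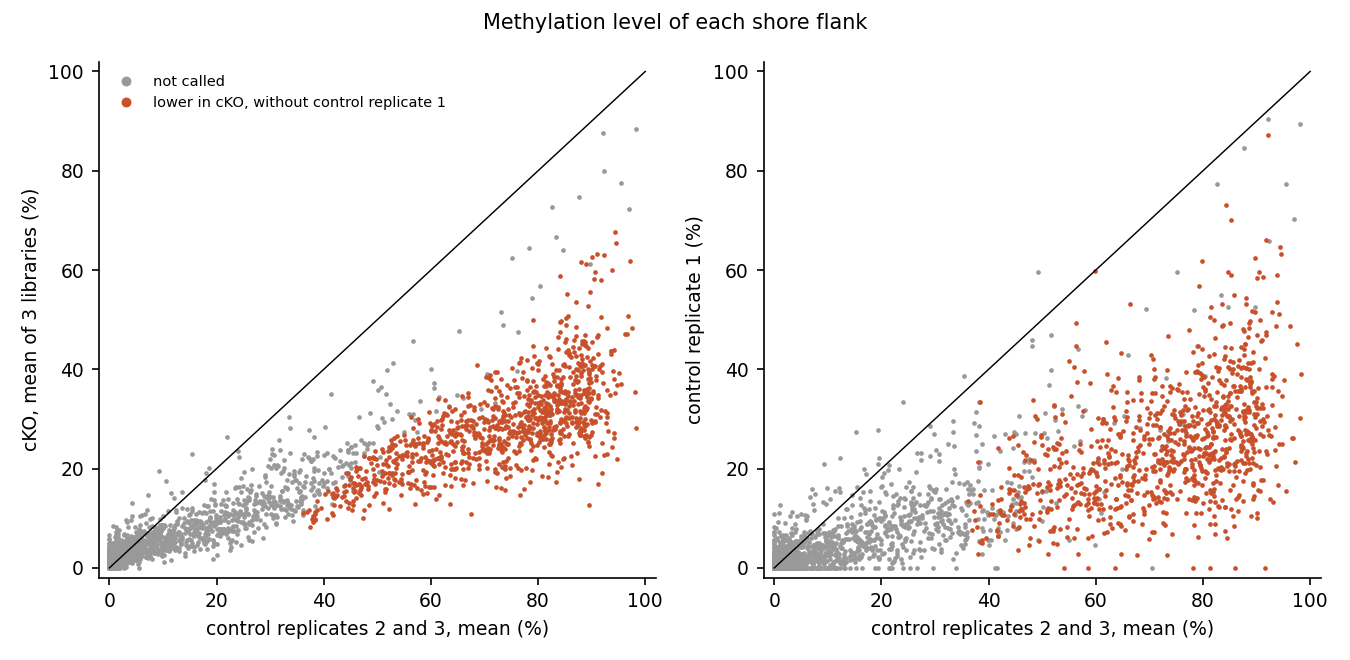
Each point is 1 of the 2626 promoter-island flanks, with the mean methylation of control replicates 2 and 3 in percent on the x axis and, on the y axis, the mean of the 3 cKO libraries (left) or control replicate 1 (right) in percent; the line marks equal values. The 983 flanks lower in cKO without control replicate 1 (red) lie far below the line in the left plot, and control replicate 1 lies at a like level in the right plot.

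The same test was applied to windows of 100 bp, the region length of the study. With all 6 libraries, 0 of 10129 windows made only of shore cytosines were lower and 0 were higher. Of all autosomal windows 0% were called. An unadjusted p under 0.05, in either direction, was found in 1046 of these shore windows and in 42265 of all 280595 autosomal windows. On the shore windows limma called 0, with 999 under 0.05. Without control replicate 1, 3052 (30.1%) were lower and 0 were higher, against 44.3% and 0.00285% of the 280595 autosomal windows. By limma 979 shore windows were lower without control replicate 1, and 0 with the dispersion of each window left unmoderated. The share of shore windows lower in this test was 6.17% at 1 to 250 bp, 33.9% at 501 to 750 bp and 58.6% at 1751 to 2000 bp. Among windows at 25% or more in control replicates 2 and 3 the share was 38.9%, 55.8% and 71.8% at these distances. These shares were not matched on the starting level, and the threshold of 25 points passes a smaller share of windows that start lower when a like proportion is left.

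Among flanks with at least 5 cytosines and 50 reads in every library and no overlap between the groups, 8 had the largest falls without control replicate 1. Downstream of Ddx41, which encodes a DEAD-box RNA helicase, the level was 13.2%, 93.4% and 92.5% in the control and 34.9%, 28.4% and 19.3% in the cKO replicates (island chr13:55536087-55536950). Upstream of Aldoa it was 21.2%, 87.6% and 91.2% in the control and 30.8%, 24.5% and 18.5% in the cKO replicates (island chr7:126808826-126809459). Downstream of Cops9, a subunit of the COP9 signalosome, it was 24.6%, 89.2% and 85.5% in the control and 22.8%, 25.5% and 20.8% in the cKO replicates (island chr1:92641163-92642289). In each of these flanks control replicates 2 and 3 were above 85% and all other libraries below 35%. Upstream of Cort, the gene of the neuropeptide cortistatin, all 7 cytosines lay within 162 bp of the edge, and the level was 26.2%, 84.0% and 79.8% in the control and 29.3%, 10.2% and 15.5% in the cKO replicates. This flank was methylated directly beside its island, where the mean over all shores was 10.4% in control replicates 2 and 3 at 1 to 250 bp. Downstream of Gamt, an enzyme of creatine synthesis, the level was 20.3%, 90.5% and 90.8% in the control and 37.3%, 33.6% and 17.6% in the cKO replicates. Downstream of Hs1bp3 the control mean of replicates 2 and 3 was 92.9% and the cKO mean 31.1% ± 8.17 (SD, n = 3), with 38.0% in control replicate 1. Beside the island shared by Bop1, a ribosome biogenesis factor, and Hsf1, the heat shock transcription factor, these values were 89.0%, 26.7% ± 5.69 (SD, n = 3) and 37.6%, and downstream of AC141477.1 they were 88.6%, 26.5% ± 3.46 (SD, n = 3) and 21.1%. With all 6 libraries the q of each of the 8 flanks was 0.231 in the moderated quasi-binomial test.

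Single flanks showed the gradient that the mean shows. In 75 flanks both the inner and the outer shore had at least 3 cytosines and 50 reads in every library. The outer shore was the more methylated in 66, 65 and 65 of them in the control and in 65, 65 and 61 in the cKO replicates. The median gradient was 11.1, 48.1 and 42.4 points in the control and 18.6, 16.4 and 10.5 points in the cKO replicates. A gradient of 50 points or more was found in 38 flanks in control replicates 2 and 3 and in 0 in the cKO mean, while the outer part was the higher in nearly as many flanks. The gradient was under 10 points in 16 of the 75 flanks in control replicates 2 and 3, and in 11 flanks the outer part was itself below 10%.

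The steepest gradients ran, in control replicates 2 and 3, from an inner part of at most 10.3% to an outer part above 78%. Downstream of Ap5b1, a subunit of the AP-5 adaptor complex, the inner part had 0.971%, 0% and 0% in the control and 0.662%, 2.46% and 1.58% in the cKO replicates. Its outer part had 25.4%, 86.7% and 89.2% in the control and 34.4%, 40% and 22.8% in the cKO replicates. The inner part was near 0% in all libraries. Downstream of Eif2b2, a subunit of the translation factor eIF2B, control replicates 2 and 3 had 1.49% in the inner part and the cKO 0.240%, and the outer part had 20.8%, 87.4% and 90.7% in the control and 28.6%, 22.0% and 22.8% in the cKO replicates. Downstream of Haspin, a mitotic histone H3 kinase, control replicates 2 and 3 had 0% in the inner part and the cKO 2.70%, and the outer part had 42.0%, 83.8% and 84.7% in the control and 50.0%, 50.5% and 35.9% in the cKO replicates. Downstream of Odf2 the inner part is the stretch printed above, and the outer part had 42.5%, 72.2% and 85.1% in the control and 25.5%, 28.7% and 31.0% in the cKO replicates. Upstream of Fscn1, the actin-bundling protein fascin, the mean of control replicates 2 and 3 rose from 10.3% in the inner to 88.6% in the outer part, and that of the cKO from 5.99% to 33.2%.

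Flanks with 20 or more covered cytosines that reach beyond 1000 bp were rare (3 flanks). The one downstream of Gtf2ird1, a transcription factor gene of the Williams syndrome region, was low throughout, with 2.02%, 7.06% and 3.26% in the control and 4.47%, 4.16% and 5.45% in the cKO replicates. Upstream of Gm9821 the level was 31.4%, 83.9% and 84.1% in the control and 34.5%, 23.9% and 24.4% in the cKO replicates. Downstream of Hps6, which acts in lysosome-related organelles, it was 16.9%, 73.2% and 59.9% in the control and 28.3%, 31.7% and 24% in the cKO replicates.

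Gene lists were described by their flanks, beside the median of 23.4% in control replicates 2 and 3 and 10.8% in the cKO over all 2626. With all 6 libraries 0 flanks of each list were called. Over all 2626 flanks 39.6% were below 10% in control replicates 2 and 3, and 37.4% were lower in cKO without control replicate 1. Flanks with at least 3 covered cytosines existed for only part of each list. They existed for 8 of 30 cortical progenitor and fate genes, 8 of 39 Hox genes and 1 of 17 interneuron genes. Among homeobox and T-box regulators outside the cortex, 17 of 42 had one. These flanks of developmental regulators mostly had little methylation, without matching on distance from the island. All 8 flanks of cortical progenitor and fate genes were below 10% in control replicates 2 and 3, with a median of 2.39% there and 3.32% in the cKO, and 0 were lower in cKO without control replicate 1. Upstream of Pax6, the transcription factor of cortical progenitors, the level was 2.08%, 7.25% and 11.1% in the control and 14.7%, 2.99% and 4.82% in the cKO replicates. Downstream of Eomes, which marks intermediate progenitors, it lay between 0% and 5.26%, upstream of Emx2, a regulator of cortical patterning, between 0% and 2.65%, and downstream of Nes, a progenitor intermediate filament, between 1.27% and 6.55% in the 6 libraries. In all 4 flanks the groups overlapped. Reads were few, with 48 on the Pax6 flank and 38 on the Emx2 flank in the most shallow library.

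Of 8 flanks in the Hox clusters, 6 were below 10% in control replicates 2 and 3 (median 1.51%, and 2.86% in the cKO), and 0 were lower. Upstream of Hoxc10 the level was 6.97%, 5.00% and 7.46% in the control and 3.27%, 4.29% and 2.71% in the cKO replicates. Among 19 flanks of homeobox and T-box regulators that act outside the cortex, 18 were below 10%, with a median of 2.98% in control replicates 2 and 3 and 3.15% in the cKO. Barhl1, a homeobox gene of the hindbrain and inner ear, had 2.75% and 2.55%. The exception was the upstream flank of Gata4, a cardiac transcription factor, with 24.2%, 64.8% and 80.8% in the control and 37.1%, 27.4% and 20.2% in the cKO replicates, the 1 flank of this list that was lower without control replicate 1. The single flank of the interneuron list, downstream of Dlx2, lay between 0% and 4.35% in the 6 libraries.

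Flanks of neuronal and synaptic genes were mixed, with 3 of 7 below 10%, a median of 38.3% in control replicates 2 and 3 and of 10.8% in the cKO, and 4 of 7 lower without control replicate 1, against 37.4% of all flanks. Upstream of Slc17a7, the vesicular glutamate transporter VGLUT1, the level was 45.6%, 65.5% and 58.2% in the control and 29.9%, 24.5% and 22.1% in the cKO replicates. Here control replicate 1 was also above every cKO library, with q = 0.231 in the moderated quasi-binomial test of all 6 libraries. Downstream of Shank3, a postsynaptic scaffold, the level was 24.2%, 81.9% and 78.9% in the control and 36.0%, 31.0% and 24.1% in the cKO replicates. The flank upstream of Nrxn2, whose sequence is printed above, had 1.19% in control replicates 2 and 3 and 2.09% in the cKO.

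Of the 2 glial flanks, the one downstream of Cspg4 was lower without control replicate 1, with 29.9%, 72.3% and 70.5% in the control and 25.5%, 30.8% and 20.8% in the cKO replicates. The other, upstream of the myelin basic protein gene Mbp, had 5.56%, 16.4% and 20% against 15.7%, 11.5% and 10.3% and was not called. Both flanks of the list of microglia, vessels and blood were below 10%, and Flt1 had 2.47% in control replicates 2 and 3 and 2.16% in the cKO. The levels of these lists cannot assign methylation to a cell type.

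Flanks of the methylation machinery included the targeted gene. Upstream of Uhrf1 the level was 7.08%, 14.2% and 12.6% in the control and 7.30%, 11.3% and 2.08% in the cKO replicates, which is not called. Upstream of Hells, a chromatin remodeller that aids methylation of repeats, it was 32.6%, 82.3% and 88.1% in the control and 51.2%, 50.8% and 44.9% in the cKO replicates, lower without control replicate 1. The median of the 3 flanks of this list was 44.5% in control replicates 2 and 3 and 23.3% in the cKO.

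The 5 of 26 germline genes with a flank had methylated shores. Promoters of germline genes are commonly methylated in somatic cells. Of 5 flanks 0 were below 10%, the median was 77.5% in control replicates 2 and 3 and 33.3% in the cKO, and 3 were lower without control replicate 1, against 37.4% of all flanks and 76.5% of those at 25% or more in control replicates 2 and 3. Downstream of Brdt, a testis bromodomain protein, the level was 45.7%, 88.2% and 93.4% in the control and 42.7%, 36.1% and 35% in the cKO replicates. Downstream of Tdrd1, of the piRNA pathway, it was 32.6%, 76.3% and 93.7% in the control and 36.8%, 39.2% and 23.9% in the cKO replicates. The flank downstream of Mov10l1, a helicase of the same pathway, lay within 253 bp of the island and had 59.6%, 76.6% and 73.8% in the control and 61.6%, 61.9% and 63.6% in the cKO replicates, a difference that was not called.

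Imprinted genes, at which 1 parental allele is methylated, had 3 flanks, from 2 of the 31 listed genes. Their median was 60.5% in control replicates 2 and 3 and 37.3% in the cKO. Downstream of Magel2 the level was 30.3%, 67.2% and 59.6% in the control and 48.7%, 21.5% and 27.1% in the cKO replicates, lower without control replicate 1. Downstream of Nnat the 12 cytosines had 39.9%, 42.4% and 61.1% in the control and 46.4%, 37.0% and 36.4% in the cKO replicates, so that cKO replicate 1 was above control replicate 2, and the flank was not called.

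Among 14 flanks of signalling genes, 6 were below 10% (39.6% over all flanks) and 4 were lower without control replicate 1 (37.4% over all flanks), with medians of 14.5% in control replicates 2 and 3 and 8.16% in the cKO. Upstream of Axin1, a scaffold of the beta-catenin destruction complex, the level was 31.0%, 88.2% and 90.6% in the control and 31.9%, 48.4% and 25.2% in the cKO replicates. Downstream of Spry1, a feedback inhibitor of receptor tyrosine kinase signalling, it was 35.3%, 68.5% and 73.5% in the control and 45.7%, 39.6% and 31.6% in the cKO replicates. Upstream of the Wnt co-receptor gene Lrp5 it was 11.2%, 39.0% and 46.2% in the control and 29.2%, 18.9% and 12.7% in the cKO replicates, short of a 25-point difference of the means.

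Housekeeping genes had 4 of 7 flanks below 10% and 3 of 7 lower without control replicate 1, against 39.6% and 37.4% of all flanks. Upstream of Chmp2a, of the ESCRT-III complex, the level was 20%, 78.6% and 74.5% in the control and 5.08%, 18.8% and 20% in the cKO replicates. Upstream of the ribosomal stalk gene Rplp0 it was 12.2%, 85.2% and 81.0% in the control and 23.9%, 33.3% and 43.8% in the cKO replicates. The most shallow library had 42 reads on the Chmp2a flank and 21 on the Rplp0 flank, so these values are coarse. The flank upstream of the actin gene Actb had 8.45% in control replicates 2 and 3 and 6.66% in the cKO. Of 4 flanks of interferon and stress response genes 2 were lower without control replicate 1. Downstream of Mavs, the adaptor of RNA sensing by RIG-I, the level was 10.4%, 61.5% and 55.9% in the control and 22.6%, 12.7% and 16.7% in the cKO replicates, and upstream of the stress-induced pseudokinase gene Trib3 it was 13.1%, 64.7% and 54.8% against 28.1%, 21.7% and 15.0%. Upstream of Atf4, the transcription factor of the integrated stress response, it lay between 0.855% and 6.25% in the 6 libraries.

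**Figure D5:**
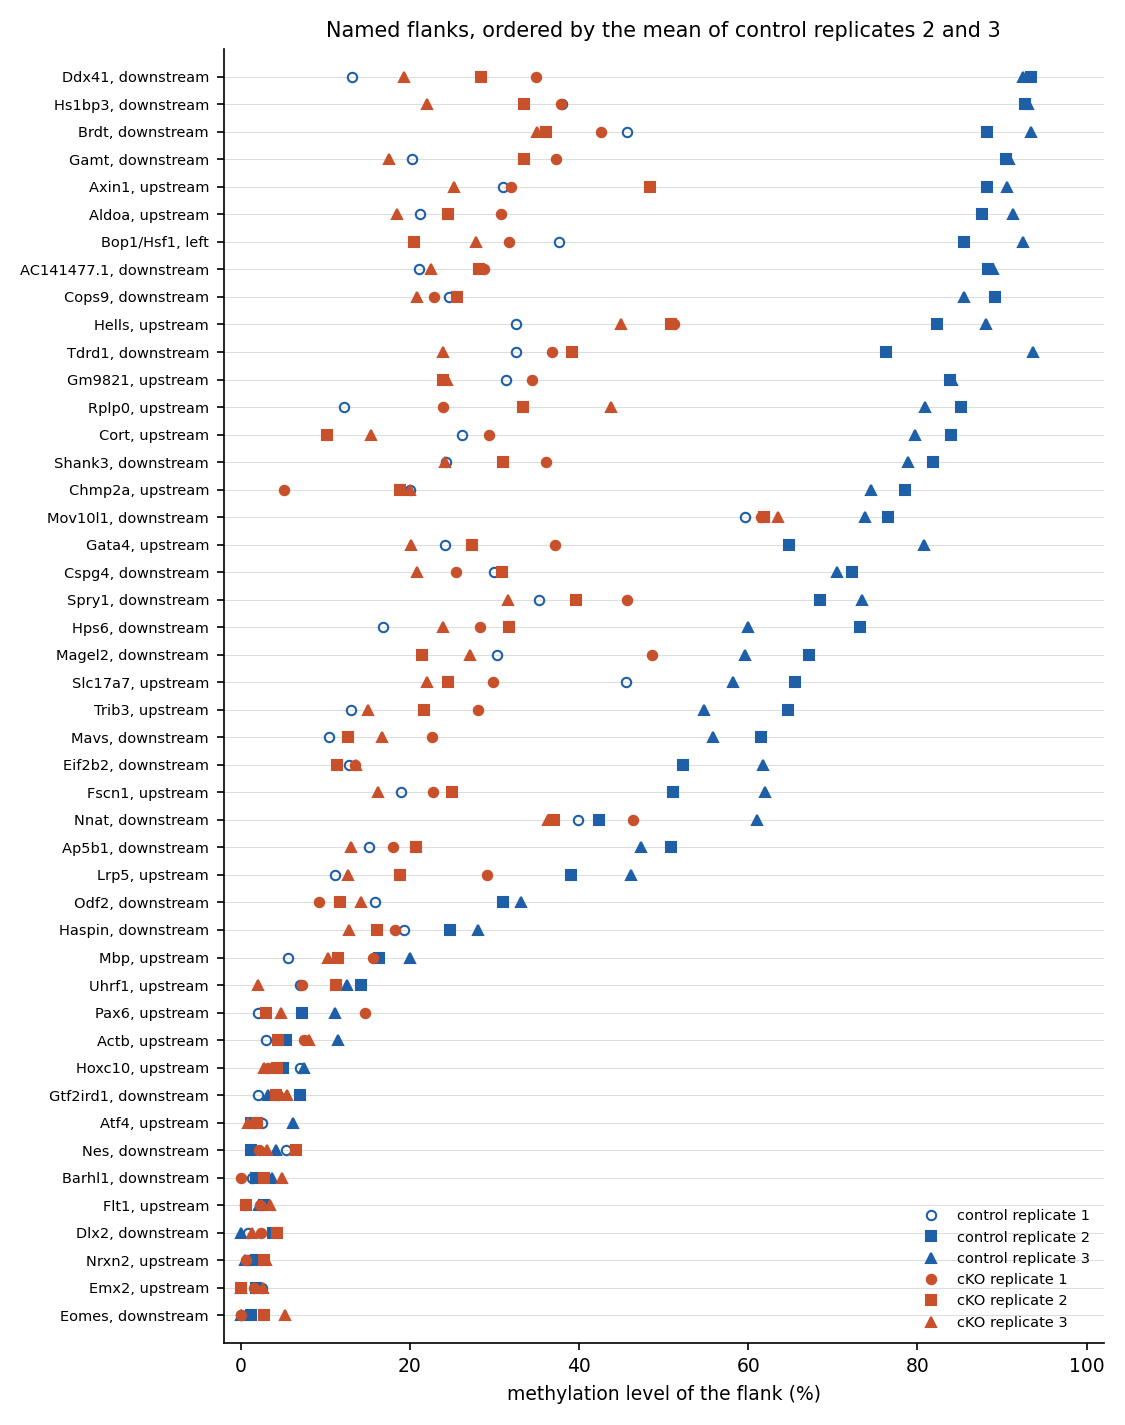
Methylation level of the named flanks in percent (x axis), 1 row per flank, ordered by the mean of control replicates 2 and 3, with 1 symbol per library. In most upper rows control replicates 2 and 3 (filled blue) stand apart from the cKO replicates (red) and from control replicate 1 (open circle). Exceptions include Mov10l1, with cKO values of 61.6% to 63.6%, and Nnat, with cKO replicate 1 (46.4%) above control replicate 2 (42.4%). In the lowest rows all 6 libraries are near 0%.

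A small set of flanks had a cKO mean at or above 50%, and these were picked after their values were seen. They were 36 of the 2626 flanks, and 21 of them were lower without control replicate 1. Of all promoter-island flanks 37.4% were lower in that test, and of those at 25% or more in control replicates 2 and 3 76.5% were. The set was chosen by its cKO level, so the count of 21 cannot be read as a result about it. The highest was upstream of Ttc38, with 89.5% in control replicate 1, a mean of 98.2% over the other 2 control libraries and 88.5% ± 7.01 (SD, n = 3) in the cKO, followed by the flank downstream of Mettl13, a methyltransferase gene, where these values were 90.5%, 92.1% and 87.6% ± 4.69 (SD, n = 3). Downstream of Cxcr4, the chemokine receptor that guides migrating interneurons, 9 cytosines had 54.9% in control replicate 1, a mean of 83.4% in the other 2 control libraries and 66.6% ± 3.46 (SD, n = 3) in the cKO. Control replicate 1 was at or above 50% in 23 of the 36 flanks. The median flank of this set had 44 reads in its most shallow library, and the values of single flanks are accordingly coarse.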

How the data were processed

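Libraries of oxidised, MspI-digested and bisulfite-treated DNA were mapped by the authors with Genomatix software to GRCm38 without mismatches, and the submitters' notes on processing also name methylKit. The deposited files list, for each strand of a CpG, a read count (coverage) and 2 values in percent for the reads showing C and T. The authors left out cytosines with 5 or fewer reads, pooled no libraries and did not normalise between them. Oxidation removes 5-hydroxymethylcytosine from the signal, so a C read counts as 5-methylcytosine. Methylated reads were recovered here from coverage and percent. Every cytosine used lay in a CpG of an autosome. Islands, distances and annotation were computed from the GRCm38 sequence and gene annotation.

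Means weight each cytosine equally and were compared with two-sided exact permutation tests over libraries. Reads summed per flank (at least 3 cytosines) or per 100 bp window were tested with a quasi-binomial F test, whose Pearson dispersion was moderated across features by the empirical Bayes method of limma (prior from features of 5 to 95% pooled methylation, floor 1). A call needed a Benjamini-Hochberg q under 0.01 and 25 points between group means, the thresholds of the study. The test was tried on simulated reads, without an outlying control library, and its moderation was compared with limma 3.58.1 in R 4.3.3. In the simulation the spread between libraries was set in advance and not estimated from these data. Changed features started at middle to high levels. Only q was scored and not the 25-point rule, so the shares below are not the power of a call in these data. Of simulated flanks with true falls of 25 and 40 points, 42% and 89% had q under 0.01 with all 6 libraries. Without control replicate 1 these shares were 26% and 81% for flanks and 5% and 34% for windows. In that window test 24 unchanged windows also had q under 0.01. Scripts ran in Python 3.11.15 with pandas 2.3.3, scipy 1.17.1, numpy 2.4.6 and matplotlib 3.10.9. Intervals are 95% Wilson intervals and cover counting error only, because PCR copies of a molecule could not be recognised. No 2 libraries held the same values.

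The shores, the gene lists and the test without control replicate 1 were chosen with earlier results of these data known. Flanks were named by rule: up to 8 called flanks with the largest falls and at least 5 cytosines, 50 reads in every library and no overlap between groups; per gene list up to 2 called flanks and the uncalled flank with most reads; 18 genes of methylation and cortical fate where they had a flank (4 had one); the 5 steepest gradients; and the least methylated of the long flanks. Sequences came from the named flanks, outside exons, with most covered cytosines. Alternatives were other coverage minima, island definitions, weights, tests, thresholds, shore widths and the omission of each library.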

Additional observations from a re-analysis of the deposited data

Results flagged for a closer look

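Mitochondrial DNA lies outside the shores and carries little CpG methylation. Over 20 mitochondrial CpG cytosines the share of C reads was 3.67% in cKO replicate 2 (95% Wilson interval 3.37 to 4.01%, 13417 reads) and 3.35% in cKO replicate 3 (3.1 to 3.63%, 17412 reads). Both were above the control libraries, which had 0.922%, 1.14% and 1.05%, and above cKO replicate 1 with 0.963% (0.731 to 1.27%, 5191 reads). The same 2 libraries had the higher levels inside promoter islands and in flanks below 10%, and the part of this difference in those levels was not tested.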

How the results depend on the processing

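Each of the 6 differences of means kept its direction under all 14 alternatives tried for it, with the mean difference at shores between -19.3 and -8.10 points, its exact permutation p between 0.1 and 0.5, the contrast with shores of other islands between 2.13 (stricter islands) and 16.6 points, and downstream minus upstream between 0.872 (stricter islands) and 3.49 (each read weighted equally). With all 6 libraries, flanks lower in cKO numbered 0 in the reported test, 613 under a plain binomial test, which takes no account of the spread between embryos, and 0 to 983 when 1 library was left out. Windows lower in cKO numbered 0, 2568 under the plain binomial test and 0 to 3052 when 1 library was left out, and 1 window was higher under the plain binomial test. Of the 6 omissions of a library, that of control replicate 1 was the only one with calls. Without that library, flanks lower in cKO numbered 983 in the reported test, 984 with limma, 1010 with the plain binomial test, 655 of 1744 at a coverage minimum of 10 reads, 409 of 1798 within 1000 bp, and 0 when each flank used its own dispersion. Windows numbered 3052, with 979 by limma, 3985 by the plain binomial test and 0 with their own dispersion. Same-numbered libraries deviated from their group means with correlations of -0.378, 0.0963 and -0.418. Control replicate 1 lay far from the other controls and dominates these deviations, so they cannot show whether the replicate numbers pair the samples. With the replicate block, 2 flanks were lower with all 6 libraries and 991 without control replicate 1, and 1893 windows were lower without it. The causes of these differences between tests were not tested. Flanks hold few reads, which limits single flanks more than the means.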
